A study of Rattus norvegicus with 6 samples.

Results

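Dnmt1, the maintenance DNA methyltransferase, and Hdac2, a class I histone deacetylase, were followed across rat fibroblasts given a demethylating drug. They were the 2 named genes, each measured by 1 probe set that maps to that gene alone, of 2890 genes and 4818 probe sets tested. Treated FE8 cells (n = 2) and treated 208F cells (n = 2) had received 5-aza-2'-deoxycytidine at 0.3 µM over 96 h, and untreated FE8 (n = 1) and untreated 208F (n = 1) had not. 208F is an immortal rat fibroblast line that is not transformed, and FE8 carries the HRAS oncogene and is transformed by it, so oncogene and line cannot be told apart with 1 line of each kind. Nothing in the labels tells if duplicate arrays stem from separate cultures, so errors and p-values reflect only how far these samples differ, possibly for technical reasons. With 1 array each, the untreated groups borrow their error from the treated pairs.

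DNMT1 copies methyl groups onto the new DNA strand behind the replication fork, so that CpG methylation survives cell division. The drug, also called decitabine, is built into DNA in place of deoxycytidine and traps the enzyme on it, and the trapped protein is broken down, so the drug acts on DNMT1 as a protein and the arrays read only its mRNA. HDAC2 removes acetyl groups from histone tails and works within repressor complexes with HDAC1, some of which are brought to methylated DNA by methyl-CpG binding proteins. In cultured cells both kinds of enzyme are studied as silencers of genes with methylated promoters.

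Both genes have promoters with many CpG sites, the dinucleotide that DNMT1 methylates, and these are shown because the drug acts at such sites. No methylation value for either promoter was analysed here. The windows are RefSeq sequences of assembly GRCr8, from 250 bases before to 50 bases after the listed gene start, in lower case with each CpG in capitals. The Dnmt1 window is chr8:27762792-27763091 on the minus strand and the Hdac2 window is chr20:42102877-42103176 on the plus strand.
Dnmt1: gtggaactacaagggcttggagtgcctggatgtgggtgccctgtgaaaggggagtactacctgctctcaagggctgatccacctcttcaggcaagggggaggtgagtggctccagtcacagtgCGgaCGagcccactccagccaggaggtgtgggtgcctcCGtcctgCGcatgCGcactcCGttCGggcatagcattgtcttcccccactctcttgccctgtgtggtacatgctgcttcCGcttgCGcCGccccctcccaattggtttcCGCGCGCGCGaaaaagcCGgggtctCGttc
Hdac2: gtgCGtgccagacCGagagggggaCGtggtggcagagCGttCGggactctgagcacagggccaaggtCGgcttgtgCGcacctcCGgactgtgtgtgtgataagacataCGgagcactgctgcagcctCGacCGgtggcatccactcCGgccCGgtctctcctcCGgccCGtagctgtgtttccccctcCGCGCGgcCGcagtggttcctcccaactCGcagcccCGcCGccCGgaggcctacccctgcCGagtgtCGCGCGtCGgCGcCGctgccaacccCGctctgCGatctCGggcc

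The Dnmt1 window held 17 CpG sites, none of them near its upstream end, and the Hdac2 window held 33, spread along its length. The median over 33469 rat promoters of the same length was 7, and 71.0% of them held fewer than the Dnmt1 window and 92.5% fewer than the Hdac2 window. The ratio of observed to expected CpG was 0.58 for Dnmt1 and 0.90 for Hdac2, at a GC content of 62.3% and 70.0%.

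Letters of known promoter elements were searched on both strands, with the elements chosen after the sequences had been seen. The E2F forms TTTCCCGC, TTTCGCGC, TTTGCCGC and TTTGGCGC, read by factors of S-phase genes, matched once in the Dnmt1 window, as GCGCGAAA from base 26 after the gene start, and not in the Hdac2 window, while 2.1% of all promoters held a match. The NRF1 motif (its unbroken palindrome) matched once in the Dnmt1 window, from 83 bases before the start, and not in the Hdac2 window, against 0.9% of all promoters. Each window held 1 GC box, GGGCGG on the minus strand, as did 33.1% of promoters. CCAAT, held by 37.5% of promoters, matched on each strand of the Dnmt1 window in overlapping letters and not in the Hdac2 window. TATAAA, held by 14.2%, was in neither. A match of letters is a description of the window and not a measured binding site.

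The arrays had mean signals between 1258 and 1390, and the pair of treated arrays had a Pearson r over all probe sets of 0.969 in FE8 and 0.959 in 208F. Signal is an array intensity on a linear scale, and differences below are of log2(signal + 64). Fibroblast markers were measured for 11 of 16 listed genes, with the filament protein Vim between 7118 and 18849 on all 6 arrays, but the collagen Col1a1 stood at 271, 100 and 131 in the 3 FE8 arrays and at 10923, 6922 and 22282 in the 3 208F arrays. The leukocyte list had 1 of 16 genes measured, Cd14, with signals from 160 to 446, and the endothelial list 2 of 8. The endothelial sum was 516 and 542 in treated FE8, against 197 in untreated FE8, and 269 and 198 in treated 208F, against 300 in untreated 208F. Nearly all of it was the receptor Flt1 in treated FE8, which rose there by 1.73 ± 0.36 (adjusted p = 0.013, limma). The other measured gene of that list, Kdr, went the other way in FE8, at -1.09 ± 0.39 (adjusted p = 0.125, limma). Kdr read 9 and 2 in treated FE8, against 84 in untreated FE8. The summed signal of 5 measured epithelial markers, of 12 listed, was 5614 and 6176 in treated FE8, 1033 in untreated FE8, 4177 and 3664 in treated 208F and 199 in untreated 208F. It was higher in all 4 treated arrays. Most of it there was the keratin Krt8, at 3838 and 4077 in FE8 and 3250 and 2825 in 208F. In untreated FE8 most of it was the cadherin Cdh17, at 838, against 715 and 951 in treated FE8. The part of either marker list in the drug comparisons was not tested. The untreated arrays were run in a different session from the treated ones, so drug and run session cannot be told apart in any drug effect below. In bulk RNA, fewer expressing cells and less RNA per cell cannot be told apart either.

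Dnmt1 mRNA (probe set AB012214_s_at) was at a similar level in 5 of the 6 arrays. It read 878 and 973 in treated FE8, 855 in untreated FE8, 952 and 829 in treated 208F, and 1228 in untreated 208F. The untreated 208F array stood above the other 5, which lay between 829 and 973. The treated groups overlapped each other, and the untreated FE8 array lay within the range of the 208F duplicates and below both treated FE8 arrays. By group the order was untreated 208F, treated FE8 (mean 925.5 ± 67.2, SD, n = 2), treated 208F (890.5 ± 87.0, SD, n = 2) and untreated FE8, and the last 3 did not separate beyond the spread of the duplicates.

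Hdac2 mRNA (probe set rc_AA892297_at) was likewise similar in 5 of the 6 arrays. It read 660 and 736 in treated FE8, 697 in untreated FE8, 695 and 1237 in treated 208F, and 745 in untreated 208F. A single array, treated 208F replicate 2, stood above the other 5, which lay between 660 and 745. The order by group was treated 208F (966 ± 383, SD, n = 2), untreated 208F, treated FE8 (698 ± 53.7, SD, n = 2) and untreated FE8, and no neighbours in it differed beyond the spread of the 208F duplicates.

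**Figure D1:**
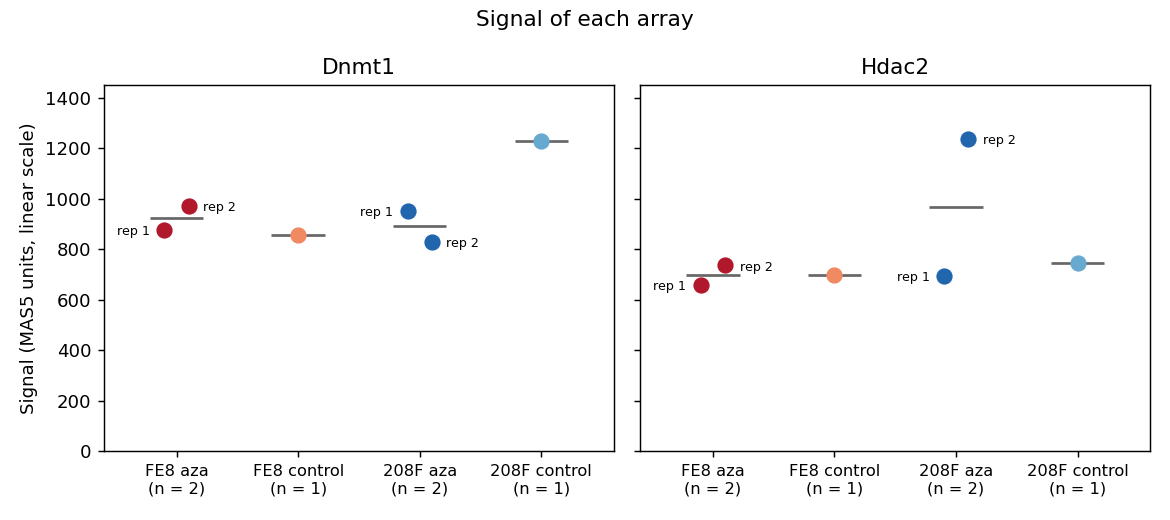
Signal of Dnmt1 and Hdac2 on each array (vertical axis, linear MAS5 units from 0; a point is an array, a horizontal line the group mean). For Dnmt1 the untreated 208F array, at 1228, is above the other 5; for Hdac2 treated 208F replicate 2, at 1237, is above the other 5.

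The first question was whether the drug altered the mRNA of its own target or of the deacetylase. Neither gene passed the test in either line. In FE8 the log2 difference of Dnmt1 (treated minus untreated) was 0.10 ± 0.28 (SE, adjusted p = 0.884, limma), with a 95% interval from -0.52 to 0.73, which as a fold runs from 0.699 to 1.66. In 208F it was -0.44 ± 0.28 (adjusted p = 0.481, limma), a fold of 0.737 with an interval from 0.479 to 1.14. Both treated 208F arrays lay below the untreated one, and both treated FE8 arrays lay above theirs. These intervals leave room for a change of Dnmt1 in either direction in each line, of less than 1 log2 unit in FE8.

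For Hdac2 the difference in FE8 was 0.00 ± 0.35 (adjusted p = 1, limma), with an interval from -0.77 to 0.77. In 208F it was 0.30 ± 0.35 (adjusted p = 0.742, limma), with an interval from -0.48 to 1.07. The 208F value rested on replicate 2: without it the difference was -0.09, and without replicate 1 it was 0.69 (adjusted p = 0.226, limma). The 208F duplicates differed by 0.78 log2 units for Hdac2, and 88.9% of all probe sets had a smaller gap between these arrays. For Dnmt1 the gap was 0.19, below the median gap of 0.30. The 208F duplicates also differed in chip lot and run day, and the part of either in these gaps was not tested.

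Across all probe sets the drug called 393 in FE8 (8.16%) and 250 in 208F (5.19%), where called means an adjusted p under 0.05. Of all probe sets 5.06% were higher and 3.09% lower in FE8, and 3.59% higher and 1.6% lower in 208F. Against that background 0 of 2 members were called in either line, also at an unadjusted p under 0.05. The median difference of all probe sets was 0.08 in FE8 and 0.11 in 208F. After centring each array on its median, the FE8 difference of Dnmt1 stood at -0.02 and that of Hdac2 at -0.12, so the direction of neither FE8 value is settled.

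The drug effects of the lines were then set against each other. For Dnmt1 the drug effect in FE8 exceeded that in 208F by 0.54 ± 0.40 (adjusted p = 0.977, limma), with an interval from -0.34 to 1.43. For Hdac2 the difference was -0.30 ± 0.50 (adjusted p = 0.999, limma), and it was 0.09 without treated 208F replicate 2. The test called 3 of 4818 probe sets (0.0623%) and neither member, also at an unadjusted p under 0.05. These were 0.0208% higher and 0.0415% lower of all probe sets. A difference in drug response between the lines was thus not detectable for either gene with these arrays.

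The lines were next compared without the drug, FE8 against 208F, which asks whether the transformed line differs in these enzymes. Dnmt1 was 855 in untreated FE8, against 1228 in untreated 208F, a log2 difference of -0.49 ± 0.33 (adjusted p = 0.587, limma). The interval ran from -1.21 to 0.23. The untreated 208F array also had the highest 5' to 3' signal ratio of beta-actin, a sign of RNA quality, at 0.824, against 0.351 in untreated FE8 and 0.384 to 0.529 in the 4 treated arrays. The same ratio of GAPDH did not set that array apart, at 0.916, against 0.691 in untreated FE8 and 1.01 to 1.13 in the treated arrays. The part of RNA quality in the Dnmt1 values was not tested.

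Hdac2 was 697 in untreated FE8, against 745 in untreated 208F, a log2 difference of -0.09 ± 0.41 (adjusted p = 0.985, limma) with an interval from -0.98 to 0.81. Both untreated arrays were of the same chip lot and session. Of all probe sets 5.92% were called in this comparison, 3.09% higher and 2.82% lower in FE8, with 0 of the 2 members, also at an unadjusted p under 0.05.

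Under the drug the lines had nearly the same Dnmt1 signal, with 878 and 973 in FE8 and 952 and 829 in 208F. The log2 difference was 0.05 ± 0.23 (adjusted p = 0.969, limma), and its interval from -0.46 to 0.56 was the narrowest of the 10 estimated here. Its direction turned to -0.04 without treated 208F replicate 2 and -0.02 without treated FE8 replicate 2. For Hdac2 the difference was -0.38 ± 0.29 (adjusted p = 0.641, limma), again set by treated 208F replicate 2, without which it was 0.00. Within the chip lot that holds 3 of the treated arrays, which leaves out treated 208F replicate 1, the values were 0.15 for Dnmt1 and -0.77 for Hdac2 (adjusted p = 0.909 and 0.0992, limma). There treated 208F is 1 array, assumed to vary like the FE8 pair, which alone gives the spread in that fit. Of all probe sets 7.08% were called, 3.42% higher and 3.65% lower in FE8, and 0 of the 2 members, also at an unadjusted p under 0.05.

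**Figure D2:**
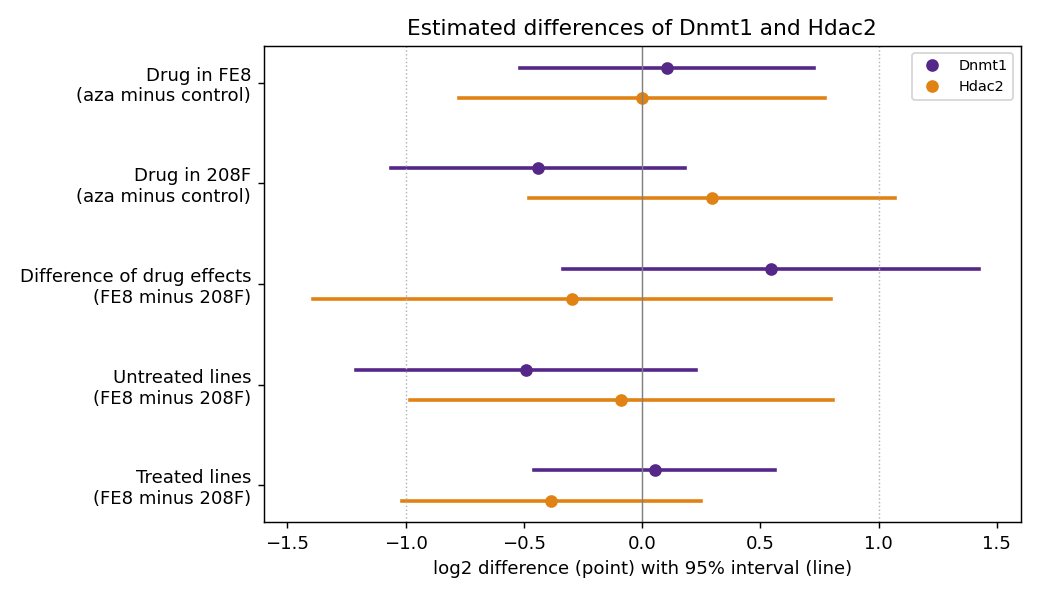
Estimated log2 difference (point) and 95% interval (line) of Dnmt1 and Hdac2 in the 5 comparisons, with dotted lines at 1 log2 unit on either side of 0. Every interval spans 0, from the narrowest, Dnmt1 between treated lines (-0.46 to 0.56), to the difference of drug effects for Hdac2 (-1.39 to 0.80).

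The measured partners of Dnmt1 and Hdac2 were read in the same fits. Of 23 listed DNA methylation enzymes and readers 5 were measured, and none passed in any of the 5 comparisons, Dnmt1 included. At an unadjusted p under 0.05 there was 1 of 5 lower with the drug in FE8, beside 9.28% of all probe sets, and 1 higher and 2 lower in 208F, beside 10.7% and 7.02%. In untreated lines 1 was higher in FE8 (Mgmt) and 1 lower (Ung), beside 8.2% and 7.49%, and in treated lines 1 was higher (Mgmt), beside 8.07%. The difference of drug effects had none at that level. Pcna, the sliding clamp that holds DNMT1 at replication forks, read 5224 and 6724 in treated FE8, against 9942 in untreated FE8, and 5251 and 4710 in treated 208F, against 10725 in untreated 208F. Its log2 difference was -0.74 ± 0.29 in FE8 (adjusted p = 0.157, limma) and -1.10 ± 0.29 in 208F (adjusted p = 0.0509, limma). All 4 treated Pcna values lay below both untreated ones, and how many of all probe sets did so was not counted.

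Among the other members of that list, Apex1, an endonuclease of base excision repair, stood at -0.51 ± 0.27 in FE8 and -0.98 ± 0.27 in 208F. Mgmt, which removes alkyl groups from guanine, stood at 0.51 ± 0.27 in FE8 and 0.72 ± 0.27 in 208F. Mgmt read 2009 and 2332 in treated FE8, against 1371 and 1250 in treated 208F, a log2 difference of 0.70 ± 0.22 (adjusted p = 0.0978, limma). Ung, which removes uracil from DNA, stood at 0.60 ± 0.36 in FE8 and -0.27 ± 0.36 in 208F. The list's median was 0.10 in FE8 and -0.44 in 208F, beside 0.08 and 0.11 for all probe sets.

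Of 37 listed histone deacetylases and corepressor subunits 8 were measured, and none passed in any comparison. At an unadjusted p under 0.05 1 of 8 was lower with the drug in FE8, beside 9.28% of all probe sets, and 0 in 208F, and 1 of 8 was lower in treated FE8 against treated 208F, beside 9.01%. These shares are near the background. Untreated lines had none at that level. Rbbp7, a histone-binding subunit shared by HDAC1 and HDAC2 complexes, read 2777 and 2996 in treated FE8, against 4615 in untreated FE8, a difference of -0.67 ± 0.27 (adjusted p = 0.176, limma). Mta1, a subunit of the NuRD deacetylase complex, read 949 and 1215 in treated FE8, against 1410 and 1795 in treated 208F, a difference of -0.54 ± 0.24 (adjusted p = 0.276, limma).

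The other deacetylase genes did not pass either. With the drug in FE8 the cytoplasmic deacetylase Hdac6, the corepressor scaffold Sin3b, the sirtuins Sirt2 and Sirt7 and the prohibitin Phb2 lay between -0.31 and -0.01, and in 208F between -0.29 and 0.35. The median over the 8 genes was -0.25 in FE8 and 0.21 in 208F. The drug effect was lower in FE8 than in 208F for each of the 8 by its estimate, as it was for 2560 of all 4818 probe sets. The median over the 8 was -0.34, beside -0.04 for all probe sets. None of the 8 differences passed (adjusted p from 0.757 for Mta1 to 0.999, limma), nor did any at an unadjusted p under 0.05. All 8 share the same untreated arrays. The Hdac2 difference turned to 0.09 without treated 208F replicate 2.

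DNMT1 is made mainly in dividing cells, so replication genes were set beside it. Of 19 measured DNA replication and S-phase genes 5 fell with the drug in FE8 and 5 in 208F, and none rose in either line. The background was 3.09% of all probe sets lower in FE8 and 1.6% in 208F. In FE8 they were Rpa3, a subunit of the single-strand binding replication protein A, at -1.50 ± 0.35 (adjusted p = 0.0246, limma), the topoisomerase Top2a at -1.39 ± 0.28, the mitotic kinase Cdk1 at -1.14 ± 0.28, the helicase subunit Mcm7 at -1.02 ± 0.26 and, named after its value was seen, the cyclin Ccnb1 at -0.996 ± 0.271. In 208F they were the polymerase subunit Pold1 at -1.99 ± 0.45, Mcm7 at -1.45 ± 0.26 (adjusted p = 0.00894, limma), Cdk1 at -1.42 ± 0.28, Rpa3 at -1.40 ± 0.35 and, named after its value was seen, the helicase subunit Mcm6 at -1.20 ± 0.28.

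Mcm7 read 1103 and 1154 in treated FE8, against 2348 in untreated FE8, and 1350 and 1227 in treated 208F, against 3628 in untreated 208F. The median over the 19 genes was -0.64 in FE8 and -0.64 in 208F. The Dnmt1 difference was higher than that of 14 of the 19 genes in each line, at 0.10 in FE8 and -0.44 in 208F. The Hdac2 difference was higher than 13 of the 19 in FE8 and all 19 in 208F. These positions are a description, since the genes share the same arrays and no test set Dnmt1 against the list.

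The counts of replication genes depended on single arrays. Leaving out a treated FE8 array does not alter the 208F differences, only their error and p-values. Calls over all probe sets fell in both lines then too. Without treated FE8 replicate 1 or 2 none of the 19 passed in either line, and without treated 208F replicate 1 or 2 the count in FE8 was 9. In 208F it was 8 without treated 208F replicate 2. After quantile normalization 1 passed in FE8 and 2 in 208F, and without the intensity trend 1 and 3. Top2a had further probe sets, at -0.23 and -0.86 in FE8, that did not pass. Mcm6 also had further probe sets, at -1.06 and -1.04 in 208F, that did not pass (adjusted p = 0.128 and 0.109, limma).

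**Figure D3:**
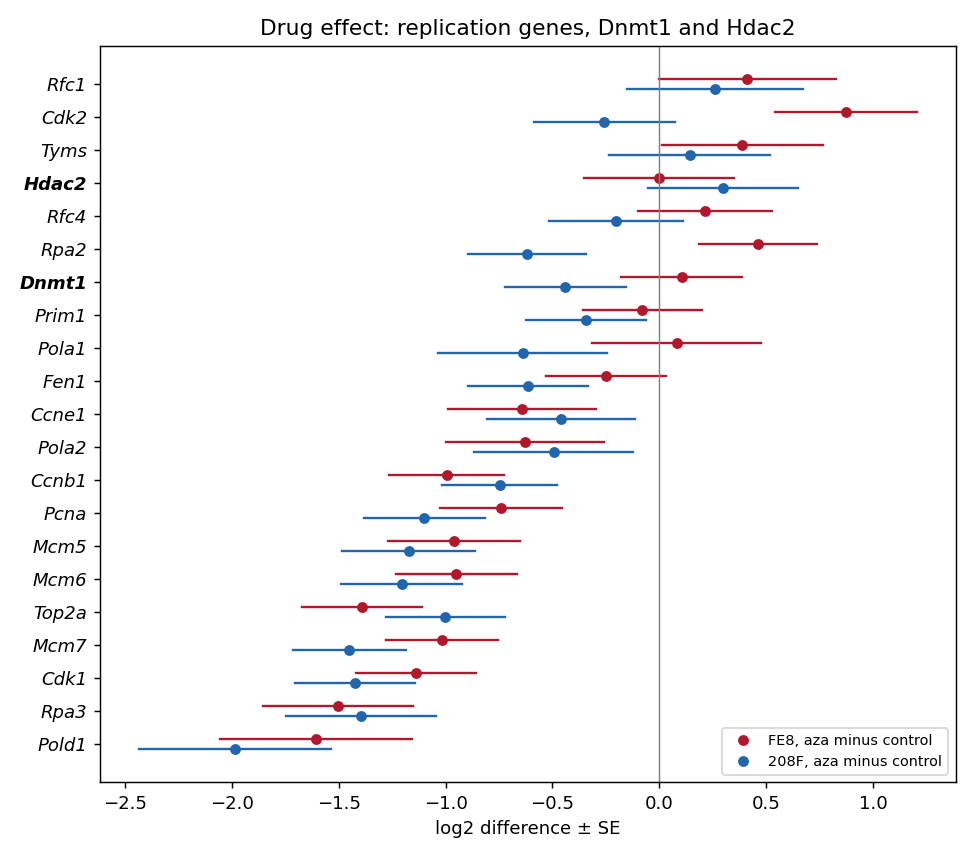
Drug effect (log2 difference of treated minus untreated, ± SE) on 19 replication genes, Dnmt1 and Hdac2 in FE8 (upper point of each pair) and 208F (lower point). Dnmt1 (0.10 and -0.44) and Hdac2 (0.00 and 0.30) lie toward the right of a list whose median is -0.64 in both lines.

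Genes that carry the drug to its target were read last. Decitabine enters cells through nucleoside transporters, is phosphorylated, and is built into DNA. Of 23 listed genes of its uptake, activation and breakdown, and of efflux pumps, 7 were measured. The listed kinase Dck and deaminase Cda were not among them. Slc29a1, an equilibrative nucleoside transporter, read 1287 and 1156 in treated FE8, against 410 and 389 in treated 208F, and 1504 in untreated FE8, against 269 in untreated 208F. All 3 FE8 arrays lay above all 3 208F arrays, and the share of all probe sets with this order was not counted. Its line difference was 2.24 ± 0.34 without the drug (adjusted p = 0.00245, limma) and 1.47 ± 0.24 with it (adjusted p = 0.00268, limma). The related transporter Slc29a2, named after its value was seen, was not higher in FE8. Its line difference was -0.38 ± 0.44 without the drug and -0.09 ± 0.31 with it (adjusted p = 0.841 and 0.967, limma).

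Abcb1b, a multidrug efflux pump, read 5540 and 5566 in treated FE8, against 890 in untreated FE8, and 1885 and 1830 in treated 208F, against 135 in untreated 208F. The drug effect was 2.56 ± 0.26 in FE8 (adjusted p = 0.000175, limma) and 3.27 ± 0.26 in 208F (adjusted p = 2.98e-05, limma). In the treated lines 3 of the 7 genes were higher in FE8, Slc29a1, Abcb1b and the related pump Abcb1a, against 3.42% of all probe sets, and none was without treated FE8 replicate 1 or 2. The count in treated lines was 2 after quantile normalization, with a filter on signal and with the replicate block. Abcb1a had low signals, at 205 and 267 in treated FE8, against 83 and 17 in treated 208F. In the untreated lines 2 of 7 were higher, against 3.09% of all probe sets. Nme2, a nucleoside diphosphate kinase, fell with the drug in FE8 by 1.17 on the log2 scale (SE 0.28, adjusted p = 0.0303, limma), with 5029 and 5055 in treated FE8, against 11403 in untreated FE8. That call was lost without either treated FE8 replicate, after median centring, without the intensity trend and with the replicate block. The related kinase Nme1, named after its value was seen, was at 0.00 ± 0.27 with the drug in FE8 (adjusted p = 0.997, limma).

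The probe sets most like each member over the 6 arrays were taken by Pearson's r of log2 values, among 2567 probe sets of other single genes with a mean log2 value of at least 8 and a range of at least 0.5. For Dnmt1 they were Dad1, a subunit of the oligosaccharyltransferase (r = 0.975), Sec61a1, the channel of the ER translocon (r = 0.970), the MYB-binding protein Mybbp1a (0.965), the G protein subunit Gnb2 (0.961) and the actin crosslinker Actn4 (0.955). Dad1 read 1434 and 1553 in treated FE8, 1383 in untreated FE8, 1656 and 1390 in treated 208F and 1986 in untreated 208F. Like Dnmt1, all 5 were highest in the untreated 208F array, as were 16.5% of all probe sets. The 5 were picked for likeness over only 6 arrays, so a shared highest array follows largely from the choice. Other probe sets of Dad1 gave r = 0.557 and 0.701, and the other probe set of Mybbp1a gave -0.377.

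For Hdac2 they were the myosin regulatory light chain Myl12b (r = 0.990), the acyl-CoA synthetase Acsl1 (0.989), the peptidase Tpp2 (0.988), the helicase Dhx36 (0.981) and Ylpm1 (0.977). Each was highest in treated 208F replicate 2, as were Hdac2 and 17.5% of all probe sets. This too follows largely from how the 5 were picked. Myl12b read 936 on that array and between 318 and 437 on the others. Their other probe sets, 9 in all, had r between -0.420 and 0.770 with Hdac2, all below the 5 values above. Dnmt1 and Hdac2 had r = -0.310 with each other over the 6 arrays.

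**Figure D4:**
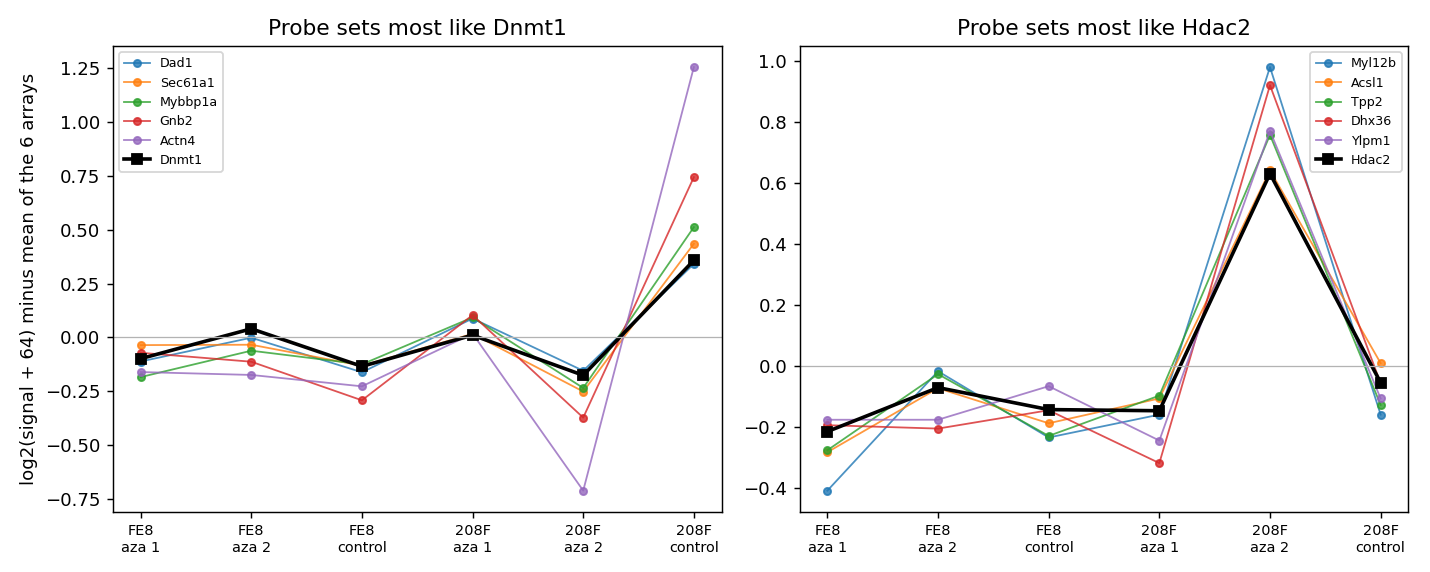
Log2(signal + 64) minus its mean over the 6 arrays, for Dnmt1 and Hdac2 (black squares) and the 5 probe sets most like each (coloured points). The Dnmt1 group peaks at the untreated 208F array (1228 for Dnmt1), and the Hdac2 group at treated 208F replicate 2 (1237 for Hdac2).

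The reading of these members rests on 1 probe set each. The Dnmt1 probe set carries the suffix _s, which marks probes that may be shared between transcripts. A pseudogene, Hdac2-ps1, is annotated on rat chromosome 4, and whether the Hdac2 probes also read it was not tested.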

How the data were processed

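The data were 6 Affymetrix rat arrays. Each deposited value is a linear-scale signal intensity of 1 probe set, and the submitters' processing notes name MAS5, with version and settings not given in the sources used here. How the 4847 rows were chosen from the array is not given in the sources used here. After 29 control probe sets were left out, 4818 were tested. The other deposited files are run settings, used only for sessions and chip lots. Names came from the platform annotation, updated by gene identifier (GRCr8), with 3956 probe sets of 1 gene, 207 of several and 655 of none.

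Signals were taken as log2(value + 64), 64 being the 10th percentile of tested values. The 4 group means were estimated by limma 3.58.1 under R 4.3.3 (eBayes, trend on intensity), with 2 residual degrees of freedom, 2-sided moderated tests and Benjamini-Hochberg adjustment over all tested probe sets at 0.05. The script was tested on simulated arrays with changes put into treated FE8. Of 100 probe sets changed by 1 log2 unit it called 33 in the right direction, and of 100 changed by 2 units 97. It also called 12 unchanged probe sets. The number of arrays limits the precision. The members and lists were chosen with earlier results of these data known. Lists used the brightest probe set of a gene. Members and any measured gene of the methylation and deacetylase lists could be named, and up to 4 per direction of other lists in order of absolute difference, or up to 2 as values where none passed, with the 5 probe sets most like each member. Alternatives were the added constant, scaling, trend, a filter on signal, each treated array left out and a replicate block.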

Additional observations from a re-analysis of the deposited data

How the results depend on the processing

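Neither Dnmt1 nor Hdac2 passed the threshold in any of 112 alternative fits over the 5 comparisons, 103 of which kept the direction. Many of these fits could not alter the direction, so the count of kept directions is no measure of stability. The trend setting, the filter on signal and the replicate block leave each difference as it was. Leaving out an array that is not in the comparison does so too. Beside the reversals given in the report (Dnmt1 in treated lines without 1 array, Dnmt1 in FE8 at -0.0195 after median centring, Hdac2 without treated 208F replicate 2), Hdac2 in FE8 was at -2.41e-05 with a constant of 16, -0.124 after median centring and -0.0719 without FE8 replicate 2. Leaving out 1 treated array moved Dnmt1 between 0.0357 and 0.174 in FE8, -0.533 and -0.347 in 208F, and -0.0398 and 0.146 in treated lines. It moved Hdac2 between -0.0719 and 0.0721 in FE8, -0.0920 and 0.685 in 208F, -0.685 and 0.0921 for the difference of drug effects, and -0.774 and 0.00389 in treated lines.

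Counts of all probe sets past the threshold with 1 treated array left out ran from 76 to 783 for the drug in FE8, 75 to 663 in 208F, 0 to 206 for the difference of drug effects, 109 to 541 for untreated lines and 96 to 530 for treated lines, the low ends always without an FE8 array. Quantile normalization gave 257 in FE8, 164 in 208F and 0 for the difference of drug effects, against 3. That last count was 10 with the constant of 16 and 6 with a higher one, 9 after median centring, 0 without the trend and 0 with the filter. Centring moved the median of all probe sets by -0.12 in FE8 and -0.14 in 208F, and gave 183 higher and 166 lower calls in FE8 and 145 and 94 in 208F, against 244 and 149 in FE8 and 173 and 77 in 208F without it. The cause was not tested.

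Same-numbered treated arrays deviated together with r = 0.319 over 2 pairs, which does not establish pairing. With the replicate block 0 probe sets passed for the difference of drug effects, 429 in FE8, and no call of either member changed.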

Other observations

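Enzymes that make or spend the methyl donor S-adenosylmethionine, which DNMT1 uses, were measured for 10 of 27 listed genes. With the drug in FE8 1 of them fell, the folate enzyme Mthfd1 at -1.10 ± 0.30 (adjusted p = 0.0486, limma), beside 3.09% of all probe sets, and none passed in 208F, where 1.6% of all were lower and 3.59% higher, and where none passed at an unadjusted p under 0.05 either. Mthfd1 read 473 and 368 in treated FE8, against 1012 and 1224 in treated 208F, a difference of -1.29 ± 0.25 (adjusted p = 0.00758, limma), as 1 of 10 beside 3.65% of all probe sets. In untreated lines Cth, which makes cysteine from cystathionine, was higher in FE8 by 1.48 ± 0.38 (adjusted p = 0.0448, limma), with 1268 in FE8 and 413 in 208F, as 1 of 10 beside 3.09% of all probe sets. Each of these calls was lost without treated FE8 replicate 1 or 2. The Mthfd1 call in FE8 and the Cth call were also lost after quantile normalization, without the intensity trend, with the filter on signal and with the replicate block. The Mthfd1 call was also lost with the higher added constant and the Cth call also after median centring. The other Cth probe set was higher in untreated FE8 too, at 2.20 ± 0.45 (adjusted p = 0.0145, limma), and was not followed through these settings.

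Of 26 listed histone acetyltransferases and histone methylation enzymes 4 were measured (Cbx5, Eed, Ehmt2 and Kat5), and none passed in any comparison. At an unadjusted p under 0.05 there was 1 of 4, beside 10.7% of all probe sets, Eed, a subunit of the Polycomb methyltransferase, at 0.61 ± 0.27 with the drug in 208F, and its value in FE8 was 0.01 ± 0.27. Of 9 measured p53 targets and cell cycle inhibitors 3 rose with the drug in FE8 and 4 in 208F, against 5.06% and 3.59% of all probe sets. The largest was Cdkn1a, an inhibitor of cyclin-dependent kinases, at 4.65 ± 0.39 in FE8 and 3.91 ± 0.39 in 208F. Its signal in untreated FE8 was 43, below the added constant, whose part in the FE8 value was not tested. The other Cdkn1a probe set rose too, at 2.90 ± 0.32 in FE8 and 3.42 ± 0.32 in 208F (adjusted p = 0.000299 and 9.94e-05, limma). There the order of the lines was reversed. Without treated FE8 replicate 1 or 2 the counts of risen genes on this list were 1 in FE8 and 2 in 208F.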
